A study of Mus musculus with 6 samples.

Results

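The proteasome subunits were taken as every protein-coding gene whose mouse symbol is Psma, Psmb, Psmc or Psmd followed by digits alone, or Psme1 to Psme4, which gave 43 of 39179 genes. The rule used gene names only and no measured value, but it was chosen with earlier results of these data known. Bulk RNA sequencing was available for livers of obese C57BL/6J mice. A high-fat diet, in which fat supplied 60% of the energy, began at an age of 5 weeks and lasted 21 weeks. Histology of the livers, stained with haematoxylin and eosin, gave the classes nonalcoholic steatohepatitis (NASH, 3 libraries) and isolated steatosis (3 libraries). NASH is fat storage joined by inflammation and cell injury, and isolated steatosis is fat storage alone. All 6 livers share the diet, the strain and the age, and no lean liver was analysed here, so every difference is between classes of fatty liver. The labels do not say outright that each library came from a different mouse, so the p-values measure the spread between these libraries.

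The proteasome is the large protease that breaks down proteins tagged with ubiquitin. Its barrel, the core particle, stacks rings of alpha subunits, which gate the entrance, around rings of beta subunits, some of which cut peptide bonds. A cap, made of a base with ATPases and a lid, recognises, unfolds and feeds in the substrate. Under interferon, cells make inducible catalytic subunits that replace the constitutive ones and form the immunoproteasome, which trims peptides for display on MHC class I molecules.

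The libraries held between 13909238 and 18002095 counts. Mitochondrially encoded genes took 81.8%, 83.9% and 62.0% of them in the NASH libraries and 77.9%, 68.3% and 70.6% in the steatosis libraries. Loci that resemble ribosomal RNA took 22.3% in NASH replicate 3 and 8.96% in steatosis replicate 2, and at most 1.06% in the other 4 libraries. All other genes together held 16.1% ± 0.921 of the counts in NASH and 24.2% ± 3.86 in steatosis (SD, n = 3 each, two-sided exact permutation p = 0.1, the smallest possible with 3 against 3). The subunits together therefore rested on 6777, 6482 and 4900 counts in the NASH libraries and 9292, 8453 and 14695 in the steatosis libraries. As a share of the counts of those other genes this was 0.238% ± 0.0131 in NASH and 0.265% ± 0.0184 in steatosis (SD, n = 3 each, exact permutation p = 0.2). Levels below are CPM, counts scaled to the size of their library after that size was adjusted with a TMM factor.

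The log2 fold change, NASH over steatosis, was below 0 for 12 of 13 core subunits tested, of which 2 were called. It was below 0 for 11 of the 17 cap subunits, of which 1 was called. For the cap's 6 ATPases, of which 0 were called, it lay between -0.17 and 0.10. The difference between these classes was not tested. Of the 40 subunits that passed the filter on low counts, 3 fell and 0 rose in NASH at an adjusted p under 0.05 (edgeR's quasi-likelihood test, with p-values adjusted over 11375 genes by the Benjamini-Hochberg method). The 3 were Psmb4, Psmb1 and Psmd8, or 7.5% of the subunits tested. Of all tested genes 3.33% were called lower and 1.49% higher. Tested protein-coding genes with shorter mRNAs were called lower more often. The share was 8.12% for mRNAs of 800 to 1200 bp and 5.39% for those of 1200 to 2000 bp. The tested subunits had a median mRNA length of 1540.5 bp. At an unadjusted p under 0.05, 10 subunits were lower and 0 higher, which is 25.0% of those tested beside 12.9% of all tested genes that were lower and 10.2% that were higher. DESeq2 and limma-voom called the same 3 subunits and 0 others. In 16 of the 40, or 40.0%, every NASH library lay below every steatosis library, against 16.2% of all tested genes. In 0 subunits did every NASH library lie above, against 13.1% of all tested genes. The log2 fold change was below 0 in 30 of the 40 subunits, or 75.0%, against 49.4% of all tested genes, and the subunits' median was -0.21 beside 0.01 for all tested genes. In whole liver, fewer cells of a type and less RNA per cell cannot be told apart.

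**Figure D1:**
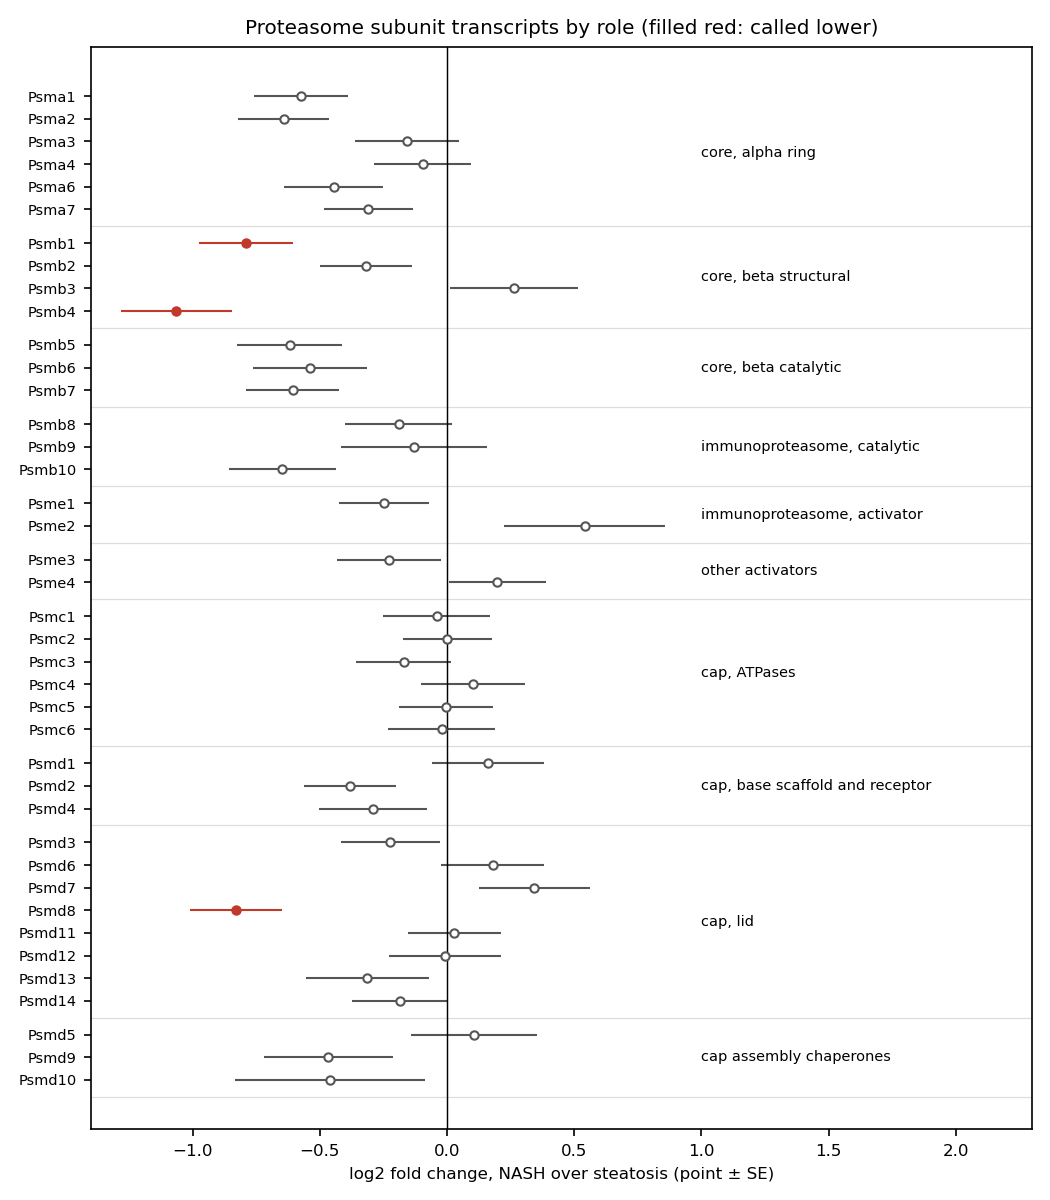
Log2 fold change of each tested subunit, NASH over steatosis, with its standard error as a horizontal bar and subunits grouped by role. The 3 filled red points are the subunits called lower (Psmb1, Psmb4 and Psmd8). Of the 13 core subunits 12 lie left of 0, and of the 17 cap subunits 11 do. The ATPases of the cap lie between -0.17 and 0.10.

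The summed level of the 14 core subunits was 143, 133 and 145 CPM in the NASH libraries, against 225, 186 and 190 CPM in the steatosis libraries. All 3 NASH libraries lay below all 3 steatosis libraries. Of the 13 core subunits tested, 2 fell, beside 3.33% of all tested genes. A log2 fold change below 0 was found for 12 of the 13, beside 49.4% of all tested genes, and in 10 every NASH library lay below every steatosis library, beside 16.2% of all tested genes. Their median log2 fold change was -0.54, and -0.25 with offsets for mRNA length. The core mRNAs had a median length of 1160 bp. Tested protein-coding genes of 800 to 1200 bp had a median log2 fold change of -0.12, and 8.12% of them were called lower. Shares by length were not computed for the other counts.

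Psmb4 and Psmb1 are structural beta subunits, which complete the beta ring without cutting peptides. Psmb4 (ENSMUSG00000005779, chr3:94884093-94886961, minus strand, GRCm38) had 10.2, 9.71 and 10.1 CPM in the NASH libraries, against 26.8, 15.8 and 20.1 CPM in the steatosis libraries. The NASH values were close together, and the lowest steatosis library still lay above all of them. Psmb4 averaged 10.0 ± 0.261 CPM in NASH and 20.9 ± 5.53 CPM in steatosis (SD, n = 3 each), a log2 fold change of -1.06 (SE 0.22, adjusted p = 0.026 by edgeR's quasi-likelihood test). Psmb1 (ENSMUSG00000014769, chr17:15475021-15499751, minus strand) had 18.6, 15.2 and 18.6 CPM in the NASH libraries, against 33.0, 28.4 and 29.3 CPM in the steatosis libraries. The groups did not overlap, and the log2 fold change was -0.79 (SE 0.19, adjusted p = 0.0417 by the same test). The remaining structural beta subunits did not pass the test. Psmb2 had a log2 fold change of -0.32, and Psmb3 one of 0.26, the only core subunit above 0. Psmb3 had 2.99, 5.02 and 3.72 CPM in the NASH libraries and 3.70, 3.12 and 3.01 CPM in the steatosis libraries, which overlap.

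Psmd8, a lid subunit, was the only cap subunit called. Psmd8 (ENSMUSG00000030591, chr7:29174188-29180701, minus strand) had 8.96, 7.63 and 7.99 CPM in the NASH libraries, against 16.1, 13.5 and 14.1 CPM in the steatosis libraries. The highest NASH library lay well below the lowest steatosis library, and the log2 fold change was -0.83 (SE 0.18, adjusted p = 0.0314 by edgeR's quasi-likelihood test). The counts behind Psmb4, Psmb1 and Psmd8 ranged from 88 to 791 per library. Leaving out any single library kept each direction but moved adjusted p-values past 0.05. Psmb4 stayed called only without steatosis replicate 2 (0.044) or 3 (0.0465) and otherwise had adjusted p-values of 0.0687 to 0.0922, while Psmd8 had 0.0556 to 0.116 and Psmb1 0.0659 to 0.131 across all 6 omissions.

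The promoter windows of the called Psmb4 and Psmd8 are shown first because both hold, close to the start of transcription, the ETS-family core, a binding sequence of transcription factors of the ETS family. The windows are from RefSeq (GRCm38.p6) and run from 250 bases before to 50 bases after the start, written 5′ to 3′ on the gene's own strand. Psmb1 has no window in that table. Capitals mark the match to ACTTCCG, which begins 5 bases before the start in Psmb4 (chr3:94886909-94887208, minus strand) and 17 bases before it in Psmd8 (chr7:29180624-29180923, minus strand).
Psmb4: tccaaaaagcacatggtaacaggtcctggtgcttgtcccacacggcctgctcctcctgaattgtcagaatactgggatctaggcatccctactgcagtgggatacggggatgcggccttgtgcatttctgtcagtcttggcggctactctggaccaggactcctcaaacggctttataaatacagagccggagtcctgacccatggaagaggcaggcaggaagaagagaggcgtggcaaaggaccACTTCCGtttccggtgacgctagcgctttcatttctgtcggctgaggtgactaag
Psmd8: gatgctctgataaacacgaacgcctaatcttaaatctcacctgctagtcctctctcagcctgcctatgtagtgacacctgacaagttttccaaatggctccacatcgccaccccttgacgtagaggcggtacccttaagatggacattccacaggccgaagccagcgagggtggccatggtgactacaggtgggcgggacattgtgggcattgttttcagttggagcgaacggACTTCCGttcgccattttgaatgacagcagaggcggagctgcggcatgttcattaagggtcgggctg
Windows were found for 36 of the 43 subunits, and the letters ACTTCCG, searched on both strands, occur in 12 of them (33.3%), beside 6.59% of 27025 promoter windows of the same length. Among the windows the letters occur in 8 of 14 cap genes, 2 of 11 core genes, 0 of 5 immunoproteasome genes and 0 of 3 cap assembly chaperone genes. They are thus in windows of genes with unlike fold changes, such as the ATPase genes Psmc1, Psmc2 and Psmc4, which were not called. This motif was chosen after the sequences had been seen, and a match of letters does not show that a factor binds.

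**Figure D2:**
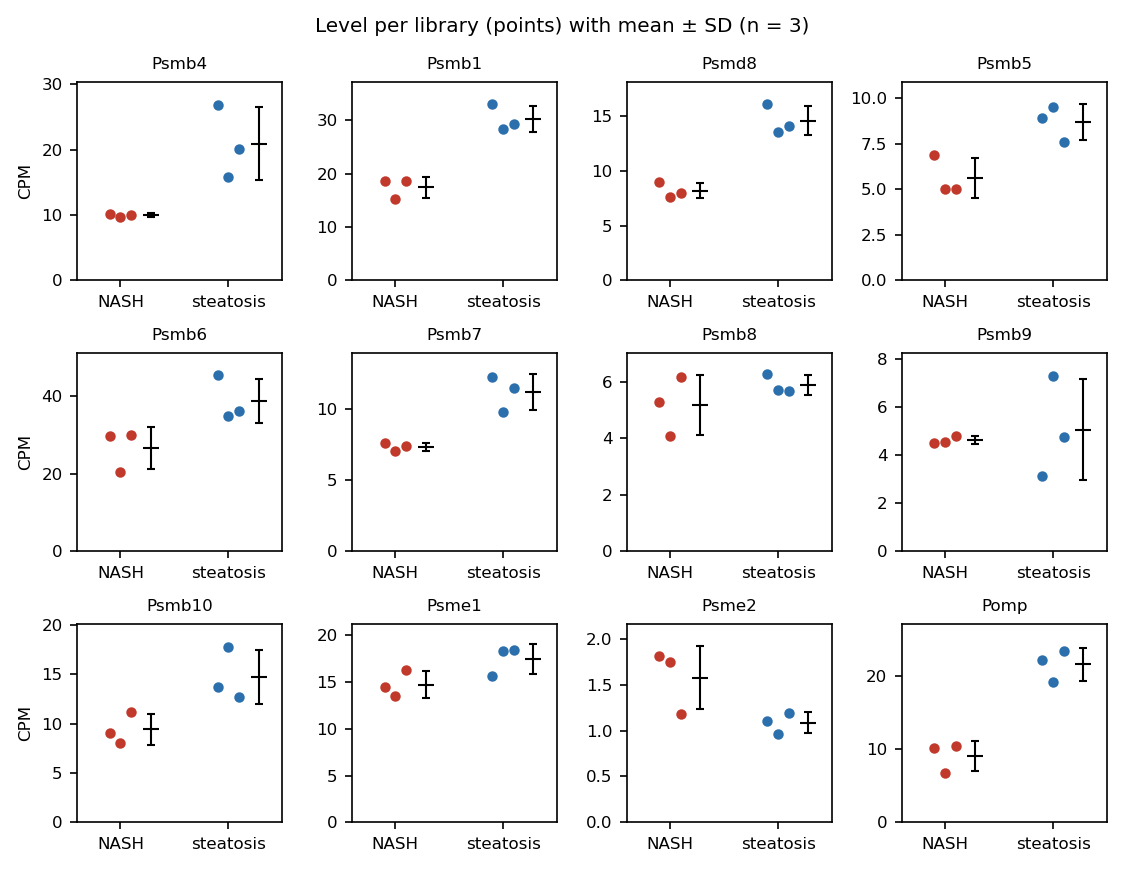
Level in CPM of the 3 called subunits, the constitutive and inducible catalytic subunits, the interferon-inducible activator subunits and the assembly factor Pomp, with NASH libraries in red on the left, steatosis libraries in blue on the right, and black marks for the mean ± SD (n = 3). The groups are apart for Psmb4, Psmb1, Psmd8, Psmb5, Psmb6, Psmb7, Psmb10 and Pomp, and overlap for Psmb8, Psmb9, Psme1 and Psme2.

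The constitutive catalytic subunits are the cutting sites of the standard core. Psmb5 carries the chymotrypsin-like activity, Psmb6 the caspase-like and Psmb7 the trypsin-like. Psmb5 had 6.88, 5.02 and 4.99 CPM in the NASH libraries, against 8.93, 9.53 and 7.61 CPM in the steatosis libraries. Its log2 fold change was -0.62 (SE 0.21, adjusted p = 0.109 by edgeR's quasi-likelihood test), so it was not called although the groups did not overlap. Psmb6 had 29.7, 20.4 and 30.0 CPM in the NASH libraries, against 45.3, 34.9 and 36.1 CPM in the steatosis libraries. The groups were again apart, with a log2 fold change of -0.54 (SE 0.22) and an adjusted p of 0.18 by edgeR's quasi-likelihood test. Psmb7 had 7.57, 7.03 and 7.35 CPM in the NASH libraries, against 12.2, 9.77 and 11.5 CPM in the steatosis libraries. It too did not overlap between groups and was not called (log2 fold change -0.61, SE 0.18, adjusted p = 0.084 by edgeR's quasi-likelihood test). All 3 had an unadjusted p under 0.05 and groups that did not overlap, beside 12.9% and 16.2% of all tested genes in that direction. Reads of Psmb5 may have been shared with the pseudogene Gm3375, which matches 88.4% of its mRNA at 98% identity or more, and how such reads were counted is not given in the sources used here. Psmb7 shares 405 bases with Nek6 on the opposite strand, and the strand setting of the counting is not given either.

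The promoter windows of Psmb5 and Psmb6 are shown because both hold the antioxidant response element core, the sequence through which the transcription factors NFE2L1 and NFE2L2 act on proteasome genes. Capitals mark the match to TGACNNNGC, searched on both strands, which begins 47 bases before the start in Psmb5 (chr14:54617946-54618245, minus strand) and 9 bases before it in Psmb6 (chr11:70525107-70525406, plus strand).
Psmb5: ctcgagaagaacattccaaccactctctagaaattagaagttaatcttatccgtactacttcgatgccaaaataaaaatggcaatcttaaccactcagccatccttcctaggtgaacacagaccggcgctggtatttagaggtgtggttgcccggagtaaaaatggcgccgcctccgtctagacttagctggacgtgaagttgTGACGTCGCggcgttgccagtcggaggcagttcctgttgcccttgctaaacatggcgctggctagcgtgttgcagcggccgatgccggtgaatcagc
Psmb6: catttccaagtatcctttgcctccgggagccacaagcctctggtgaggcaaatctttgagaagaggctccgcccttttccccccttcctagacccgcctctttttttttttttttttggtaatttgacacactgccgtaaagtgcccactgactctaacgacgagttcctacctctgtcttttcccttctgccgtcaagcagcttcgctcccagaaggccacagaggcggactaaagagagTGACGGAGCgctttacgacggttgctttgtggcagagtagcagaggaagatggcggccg
The letters occur in 6 of the 36 subunit windows (16.7%), beside 12.5% of all promoter windows. The 6 are Psmb5, Psmb6, Psmc6, Psmd9, Psmd12 and Psme4, whose log2 fold changes ran from -0.62 to 0.20. The CCAAT box, searched on both strands, was in 14 of the 36 windows (38.9%), beside 37.9% of all promoter windows.

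The alpha subunits form the gate of the core. Of the 7, 6 were tested, none was called, and all 6 had log2 fold changes below 0, with a median of -0.38 and a range from -0.64 to -0.10. At an unadjusted p under 0.05, 3 of the 6 were lower, beside 12.9% of all tested genes. In 4 of the 6 every NASH library lay below every steatosis library, beside 16.2% of all tested genes. Psma2 had 7.02, 7.43 and 7.63 CPM in the NASH libraries, against 12.3, 11.8 and 10.4 CPM in the steatosis libraries. Its groups were apart, with a log2 fold change of -0.64 (SE 0.18, adjusted p = 0.0685 by edgeR's quasi-likelihood test). Psma1 had 6.60, 8.37 and 7.72 CPM in the NASH libraries, against 10.8, 11.1 and 11.8 CPM in the steatosis libraries. It was likewise apart without being called (log2 fold change -0.57, SE 0.18, adjusted p = 0.0965 by edgeR's quasi-likelihood test). Psma6 (-0.45) and Psma7 (-0.31) also had groups that did not overlap, while Psma3 (-0.16) and Psma4 (-0.10) overlapped. The seventh, Psma5, was too low to be tested, with 3, 12 and 3 counts in the NASH libraries and 10, 9 and 17 counts in the steatosis libraries. A pseudogene, Gm8394, matches 76.5% of the Psma5 mRNA at 98% identity or more, so its own level is uncertain.

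The 17 cap subunits summed to 263, 237 and 229 CPM in the NASH libraries, against 276, 241 and 278 CPM in the steatosis libraries, and the groups overlapped. Apart from Psmd8 none was called, and the median log2 fold change was -0.02. It was below 0 in 11 of 17, beside 49.4% of all tested genes. In 5 of the 17 every NASH library lay below every steatosis library, beside 16.2% of all tested genes. The 6 ATPases, Psmc1 to Psmc6, unfold the substrate and push it into the core. Their log2 fold changes lay between -0.17 (Psmc3) and 0.10 (Psmc4), and all 6 had overlapping groups. For Psmc2, the ATPase nearest to 0, the approximate 95% interval of the log2 fold change ran from -0.34 to 0.35, so the libraries could not show a smaller difference. The base also holds the scaffolds Psmd1 (log2 fold change 0.16) and Psmd2 (-0.38) and the ubiquitin receptor Psmd4 (-0.29), and the groups of Psmd2 and Psmd4 did not overlap. The 8 lid subunits had a median of -0.10. At the upper end was Psmd7, a partner of the deubiquitinase Psmd14, with 11.6, 9.31 and 9.90 CPM in the NASH libraries and 8.44, 6.05 and 9.72 CPM in the steatosis libraries. Its groups overlapped, and the log2 fold change was 0.34 (SE 0.22, adjusted p = 0.382 by edgeR's quasi-likelihood test). Psmd14 itself, which removes ubiquitin chains from the substrate, had a log2 fold change of -0.18 and groups that did not overlap.

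Psmd5, Psmd9 and Psmd10 are chaperones that help build the base and leave the finished cap. None was called, and their median log2 fold change was -0.46. That median is the value of Psmd10 (SE 0.37), which rests on 6 to 27 counts per library. Psmd5 lay on the other side of 0, at 0.11. Psmd9 had 2.57, 3.55 and 4.45 CPM in the NASH libraries, against 4.5, 4.26 and 5.68 CPM in the steatosis libraries. The groups overlapped, with a log2 fold change of -0.47 (SE 0.25, adjusted p = 0.298 by edgeR's quasi-likelihood test). Psmd9 shares 1849 bases with Gm26745 on the opposite strand, so its reads may include that gene's.

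None of the 5 immunoproteasome subunits was called. At an unadjusted p under 0.05 by edgeR 1 was lower (Psmb10) and 0 were higher, beside 12.9% and 10.2% of all tested genes. The 5 had a median log2 fold change of -0.19, with a range from -0.65 to 0.54. In 1 of the 5 every NASH library lay below every steatosis library, beside 16.2% of all tested genes. Psmb8, which takes the place of Psmb5, had 5.28, 4.08 and 6.17 CPM in the NASH libraries and 6.28, 5.69 and 5.68 CPM in the steatosis libraries. The groups overlapped (log2 fold change -0.19, SE 0.21, adjusted p = 0.636 by edgeR's quasi-likelihood test). Psmb9, which takes the place of Psmb6, had 4.52, 4.55 and 4.81 CPM in the NASH libraries, which lay between the steatosis values of 3.14, 7.31 and 4.75 CPM. Its log2 fold change was -0.13 (SE 0.29, adjusted p = 0.831 by edgeR's quasi-likelihood test), and it became 0.21 without steatosis replicate 2, the highest library. Psmb10, which takes the place of Psmb7, had 9.03, 8.04 and 11.2 CPM in the NASH libraries, against 13.7, 17.8 and 12.7 CPM in the steatosis libraries. Here the groups were apart, with a log2 fold change of -0.65 (SE 0.21), but the adjusted p was 0.101 by edgeR's quasi-likelihood test. Psmb8 shares 498 bases with Gm20496 and Psmb9 shares 212 bases with Tap1, each on the opposite strand.

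Psme1 and Psme2 form the interferon-inducible activator ring that can sit on the core in place of a cap. Psme1 had 14.5, 13.5 and 16.3 CPM in the NASH libraries, against 15.6, 18.3 and 18.4 CPM in the steatosis libraries. The groups overlapped, with a log2 fold change of -0.25 (SE 0.18, adjusted p = 0.442 by edgeR's quasi-likelihood test). Psme2 had 1.81, 1.74 and 1.18 CPM in the NASH libraries and 1.11, 0.959 and 1.19 CPM in the steatosis libraries. This was the highest log2 fold change of any tested subunit, 0.54, but NASH replicate 3 lay among the steatosis libraries and the test was not passed (SE 0.32, adjusted p = 0.337 by edgeR's quasi-likelihood test). The Psme2 values rest on 13 to 32 counts per library.

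More reads were counted to Psme2b, an almost identical gene, than to Psme2. Psme2 (chr14:55587441-55591113, minus strand) has 11 exons, and Psme2b (chr11:48945354-48946190, minus strand) has 1. Their coding sequences of 717 bases differ at 5 positions (99.3% identity), and the longest stretch without a difference is 311 bases, over the 150-base length of a read. A stretch of 150 coding bases, positions 394 to 543 of both, is shown to let the likeness be seen, and capitals mark the 3 bases that differ.
Psme2: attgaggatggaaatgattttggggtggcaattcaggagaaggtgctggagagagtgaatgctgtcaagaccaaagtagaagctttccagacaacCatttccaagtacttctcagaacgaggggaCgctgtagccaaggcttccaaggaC
Psme2b: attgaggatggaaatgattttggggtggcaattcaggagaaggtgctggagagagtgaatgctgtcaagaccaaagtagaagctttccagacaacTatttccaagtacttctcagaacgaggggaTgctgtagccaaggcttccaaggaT
Psme2b had 13.6, 8.97 and 14.0 CPM in the NASH libraries, against 19.8, 15.0 and 17.1 CPM in the steatosis libraries. Its groups were apart, opposite in direction to Psme2 (log2 fold change -0.51, adjusted p = 0.195 by edgeR's quasi-likelihood test). The 2 genes summed to 15.4, 10.7 and 15.2 CPM in the NASH libraries, against 20.9, 16.0 and 18.3 CPM in the steatosis libraries. Psme2 took 11.7%, 16.3% and 7.78% of that sum in the NASH libraries and 5.29%, 5.99% and 6.5% in the steatosis libraries. The summed level of the pair was lower in every NASH library than in any steatosis library, while the share counted to Psme2 was higher, and whether reads were split between the copies was not tested.

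Psme3, the subunit of a nuclear activator ring, had 9.73, 9.04 and 6.36 CPM in the NASH libraries, against 10.3, 9.53 and 9.68 CPM in the steatosis libraries. The groups overlapped (log2 fold change -0.23, adjusted p = 0.546 by edgeR's quasi-likelihood test). Psme4, a large single-chain activator, had 14.2, 14.5 and 17.9 CPM in the NASH libraries and 12.6, 12.0 and 15.8 CPM in the steatosis libraries. It was not called either (log2 fold change 0.20, adjusted p = 0.578 by the same edgeR test). Tissue-restricted subunits were at or near 0. Psmb11, the catalytic subunit of the thymus, had 0 counts in all 6 libraries, and a count of 0 allows up to 3 counts in a library, for counting error only. Psma8, the alpha subunit of the testis, had 1, 4 and 1 counts in the NASH libraries and 3, 2 and 3 counts in the steatosis libraries.

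Levels per length of mRNA, which allow genes to be compared, spread widely among the subunits. Psmd4 (35.5 CPM per kb in NASH and 43.3 in steatosis) and Psmb6 (33.4 in NASH and 48.6 in steatosis) were the highest. Among tested subunits Psmd10 had the lowest level in NASH (0.491 CPM per kb, beside 0.686 in steatosis), and Psmd5 the lowest in steatosis (0.624, beside 0.666 in NASH). In the order of levels, Psmb4 stood 11th of 43 in NASH and 6th in steatosis, and Psmb5 stood 22nd in NASH and 13th in steatosis.

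**Figure D3:**
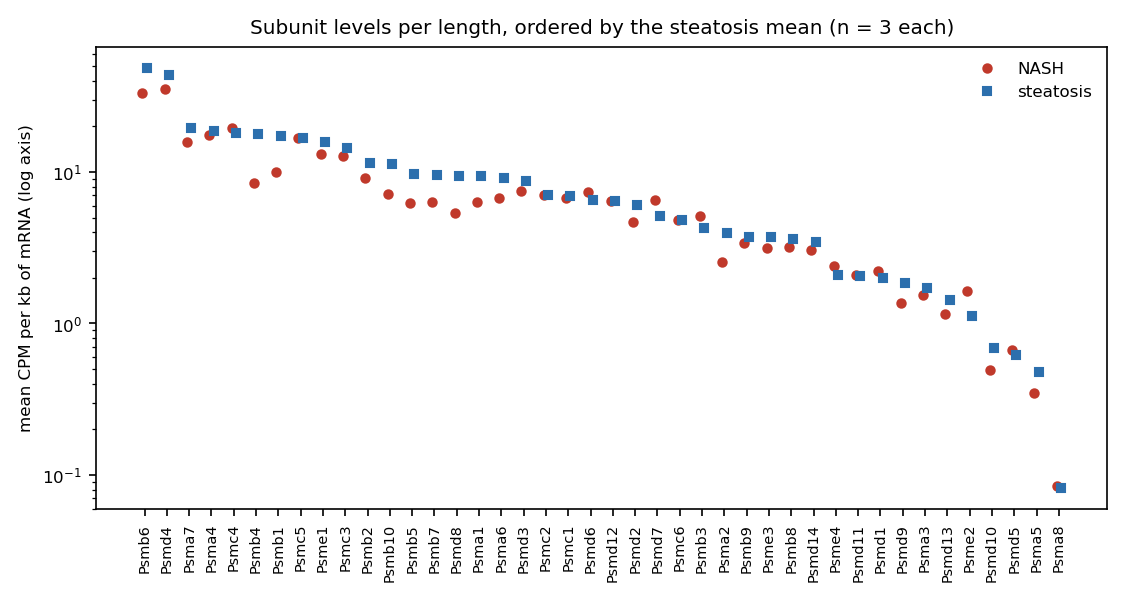
Mean CPM per kb of mRNA for 42 subunits in NASH (red circles) and steatosis (blue squares), n = 3 libraries each, on a log axis and ordered by the steatosis mean. Psmb11, at 0 counts, is not drawn, and Psmb4 shows a wide gap, with 8.45 in NASH and 17.7 in steatosis.

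Ratios within a library do not depend on how libraries were scaled. The summed cap level over the summed core level, each per kb, was 1.23, 1.19 and 1.05 in the NASH libraries, against 0.832, 0.878 and 0.995 in the steatosis libraries. Every NASH library had more cap relative to core, by 0.36 on the log2 scale (0.30 to 0.43 with 1 library left out). Core mRNAs were shorter than cap mRNAs, with median lengths of 1160 bp and 1636 bp. With offsets for mRNA length the median log2 fold changes of core and cap lay closer together. The ratio of Psmb8 to Psmb5 was 0.424, 0.449 and 0.683 in the NASH libraries, against 0.388, 0.330 and 0.412 in the steatosis libraries. These also did not overlap, though the lowest NASH value of 0.424 lay close to the highest steatosis value of 0.412. The difference between the mean log2 ratios was 0.43. It was 0.22 without NASH replicate 3, the highest library, and 0.56 at most with another library left out. The log2 fold change of Psmb5 was -0.62 and that of Psmb8 was -0.19, and neither was called. With offsets for mRNA length these were -0.38 and -0.12, so they lay closer together. The ratios themselves were not computed with such offsets. The ratio of Psmb9 to Psmb6 was 0.0898, 0.132 and 0.0948 in the NASH libraries and 0.0410, 0.124 and 0.0776 in the steatosis libraries, which overlap. The ratio of Psmb10 to Psmb7 was 1.06, 1.01 and 1.34 in the NASH libraries and 0.992, 1.61 and 0.979 in the steatosis libraries, which overlap as well. The sum of the 3 inducible over the sum of the 3 constitutive subunits was 0.262, 0.322 and 0.321 in the NASH libraries and 0.215, 0.358 and 0.262 in the steatosis libraries. No shift of the whole catalytic set towards the inducible form was therefore detectable with 3 libraries a group.

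**Figure D4:**
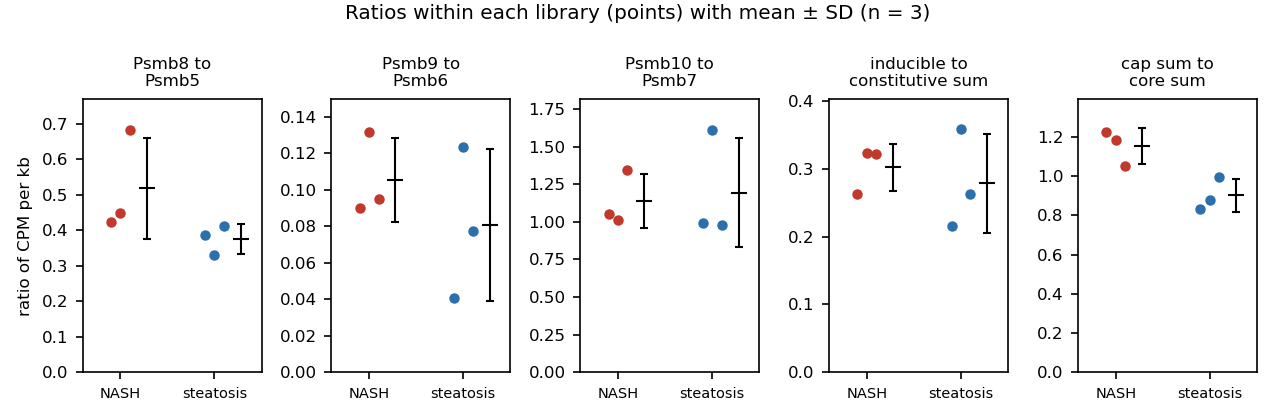
Ratios of CPM per kb within each library, with NASH libraries in red on the left, steatosis libraries in blue on the right, and black marks for the mean ± SD (n = 3). The groups are apart for Psmb8 to Psmb5 and for the cap sum to the core sum, and overlap in the other 3 panels.

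Among genes that build or restrain the proteasome, 1 of 7 tested fell, beside 3.33% of all tested genes. It was Pomp, the assembly factor that chaperones the beta ring. Pomp had 10.1, 6.70 and 10.4 CPM in the NASH libraries, against 22.2, 19.1 and 23.4 CPM in the steatosis libraries. The highest NASH library lay below all steatosis libraries, and the log2 fold change was -1.25 (SE 0.21, adjusted p = 0.014 by edgeR's quasi-likelihood test). Without steatosis replicate 1 the adjusted p was 0.0563. The median of the 7 was -0.33. Among 11 tested genes of ubiquitin and its conjugation 1 fell, beside 3.33% of all tested genes. It was Ubb, a polyubiquitin gene. Ubb had 77.1, 38.4 and 67.1 CPM in the NASH libraries, against 206, 154 and 178 CPM in the steatosis libraries. The groups were far apart (log2 fold change -1.56, SE 0.29, adjusted p = 0.0181 by edgeR's quasi-likelihood test). Without steatosis replicate 1 or 2 the adjusted p of Ubb was 0.0747 or 0.0598. The median of the 11 ubiquitin genes was -0.22. DESeq2 and limma-voom called Ubb and Pomp in these lists and no other member. Of 11 tested genes associated with the cap, receptors and deubiquitinases among them, 0 were called by edgeR, DESeq2 or limma-voom. Their median was -0.27. They include Sem1 (log2 fold change -0.60) and Adrm1 (-0.34), whose symbols fall outside the rule for the 17 cap subunits. Of the 11, 9 lay below 0 and 2 above, beside 49.4% of all tested genes below 0. At an unadjusted p under 0.05 by edgeR 2 were lower and 0 higher, beside 12.9% and 10.2% of all tested genes.

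NFE2L1 is the factor that raises proteasome genes when proteasome activity is short. Of 10 tested genes that make, process or act with NFE2L1, 0 were called by edgeR or limma-voom. DESeq2 called 1 higher (Sel1l), beside 2.78% of all tested genes. At an unadjusted p under 0.05 by edgeR 3 were higher and 2 lower, beside 10.2% and 12.9% of all tested genes. Nfe2l1 had 21.5, 25.1 and 21.7 CPM in the NASH libraries, against 36.8, 25.5 and 34.1 CPM in the steatosis libraries. The groups came close without overlapping (log2 fold change -0.50, SE 0.20, adjusted p = 0.18 by edgeR's quasi-likelihood test). Nfe2l2, its relative in the oxidative stress response, had 83.7, 88.1 and 58.9 CPM in the NASH libraries, against 51.4, 39.4 and 55.5 CPM in the steatosis libraries. It lay on the other side, with a log2 fold change of 0.66 (SE 0.24, adjusted p = 0.137 by edgeR's quasi-likelihood test). Ddi2, the protease that activates NFE2L1, had a log2 fold change of 0.45 (adjusted p = 0.343 by edgeR's quasi-likelihood test).

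Genes that share the interferon response and the antigen presentation route with the immunoproteasome were not called by edgeR either. Of 11 tested MHC class I genes 0 were called by edgeR or limma-voom, and their median log2 fold change was 0.02. DESeq2 called 1 higher (Calr), beside 2.78% of all tested genes. At an unadjusted p under 0.05 by edgeR 2 were higher and 1 lower, beside 10.2% and 12.9% of all tested genes. The peptide transporter genes Tap1 (0.42) and Tap2 (-0.33) lay on opposite sides of 0, and B2m (-0.07), H2-K1 (0.02) and H2-D1 (-0.22), which encode the presenting molecule, lay near it. B2m and H2-K1 changed sign with the scaling, the filter or a library left out. Nlrc5, the activator of MHC class I genes, had 21.7, 16.9 and 26.6 CPM in the NASH libraries and 12.8, 18.5 and 13.9 CPM in the steatosis libraries, which overlap (log2 fold change 0.53, adjusted p = 0.196 by edgeR's quasi-likelihood test). Of 9 tested interferon signalling genes 0 were called by edgeR, DESeq2 or limma-voom. A log2 fold change above 0 was found for 7, beside 5754 of all 11375 tested genes. At an unadjusted p under 0.05 by edgeR 1 was higher and 0 lower, beside 10.2% and 12.9% of all tested genes. The 1, named after its values were seen, was Stat2, with 139, 134 and 147 CPM in the NASH libraries, against 32.5, 80.0 and 105 CPM in the steatosis libraries. Its groups did not overlap, and the log2 fold change was 0.95 (SE 0.36, adjusted p = 0.151 by edgeR's quasi-likelihood test). Irf1, a transcription factor of the interferon response, had a log2 fold change of 0.20 and was not called.

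Markers of other liver cells were measured beside these groups. The 12 leukocyte markers summed to between 9.24 and 14.9 CPM in NASH and between 12.9 and 17.2 CPM in steatosis (exact permutation p = 0.6), and the 2 at 0 in some library were Cd3e and Nkg7, both in NASH replicate 2. The 10 macrophage markers summed to between 41.6 and 68.6 CPM in NASH and between 39.3 and 45.5 CPM in steatosis (exact permutation p = 0.3). The 6 endothelial markers summed to between 87.1 and 127 CPM in NASH and between 60.9 and 80.1 CPM in steatosis, and the 6 stellate cell markers to between 32.4 and 45.4 CPM in NASH and between 52.7 and 63.6 CPM in steatosis (exact permutation p = 0.1 for each, the smallest possible). The stellate markers did not move as a set, with 4 below 0 and 2 above (Lrat 0.16 and Des 0.39). Only Dcn was called (log2 fold change -1.03, adjusted p = 0.0348 by edgeR's quasi-likelihood test). It averaged 11.4 CPM in NASH and 23.1 CPM in steatosis. Of the endothelial markers 5 lay above 0 and 1 below, and 0 were called. The 7 hepatocyte markers found summed to between 9550 and 11628 CPM in NASH and between 11594 and 12286 CPM in steatosis (exact permutation p = 0.2). Of these, 5 lay below 0 and 2 above, and 0 were called. Of the 12 leukocyte markers only 5 passed the filter on low counts. Single genes weigh most in such sums, namely Clec4f among the macrophage, Stab1 among the endothelial and Alb among the hepatocyte markers. The part of these cells in the subunit values was not tested.

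Short mRNAs as a class were lower in NASH, and core subunits have short mRNAs. Tested protein-coding genes with an mRNA of up to 800 bp had a median log2 fold change of -0.33 (301 genes), those of 800 to 1200 bp one of -0.12 (628 genes), and those over 5000 bp one of 0.08 (2038 genes). The median mRNA length was 1160 bp for core subunits, 1311 bp for the immunoproteasome, 1636 bp for the cap and 2868.5 bp for all tested genes. With offsets for each library's trend with mRNA length, an alternative added after the data were seen, the median log2 fold change was -0.25 for the core, -0.08 for the immunoproteasome and -0.0042 for the cap. Psmb4 (-0.91, adjusted p = 0.0463) and Psmd8 (-0.75, adjusted p = 0.0491) remained called by edgeR's quasi-likelihood test with these offsets, beside 2.33% of all tested genes that were called lower, and Psmb1 was not (-0.74, adjusted p = 0.0569).

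**Figure D5:**
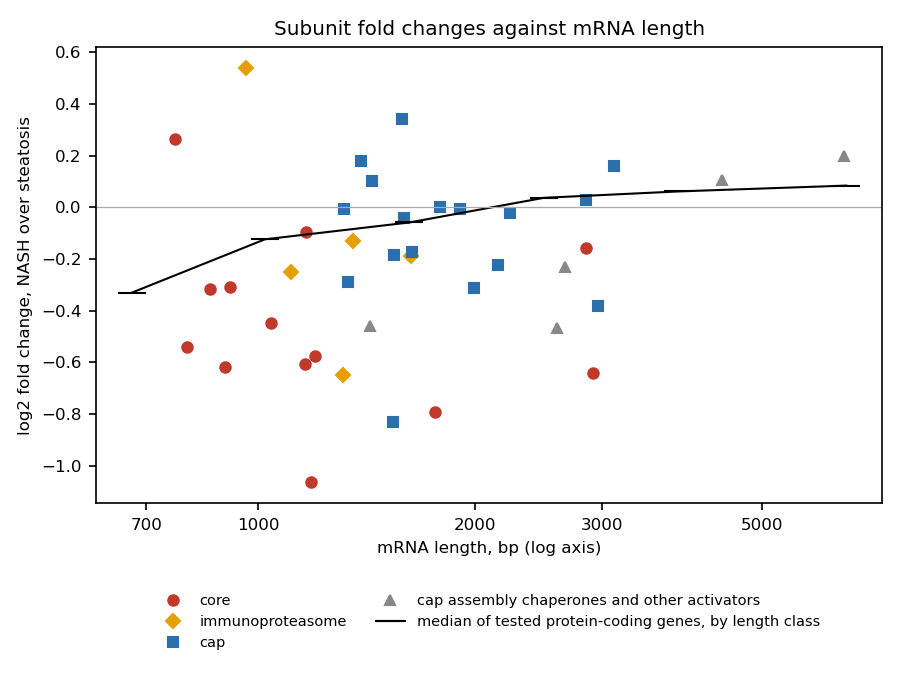
Log2 fold change of each tested subunit, NASH over steatosis, against the length of its mRNA on a log axis, by class, with the median of tested protein-coding genes in 6 length classes as a black line. The line runs from -0.33 for the shortest mRNAs to 0.08 for the longest, and most core subunits (red circles) lie below it while cap subunits (blue squares) lie on both sides.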

How the data were processed

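Per the labels' protocols, libraries of polyadenylated RNA were sequenced as 150 bp read pairs. The submitters' processing notes name TopHat2, HTSeq and mm10 (GRCm38), without versions. The authors deposited a raw, unnormalized whole-number count of reads for each of 39179 Ensembl genes in 6 libraries of 13909238 to 18002095 counts. How strand and shared reads were handled, and with which annotation release, is not stated in these sources. Of the subunits, 11 overlap a gene on the opposite strand and 2 a gene on the same strand.

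Symbols, coordinates and mRNA lengths (the principal transcript) are from GENCODE M21, on GRCm38. In R 4.3.3, edgeR 4.0.16 filtered low counts with its default, scaled libraries with TMM and compared NASH with steatosis by the quasi-likelihood test with Benjamini-Hochberg adjustment over 11375 genes. The standard error was taken from the fold change and the F statistic; the interval is a normal approximation. The procedure was tested on simulated data. Near-identical copies were sought with blastn (at least 98% identity over at least 150 bp). Alternatives used DESeq2 1.42.0, limma 3.58.1 (voom), other scalings, filters and thresholds, a replicate block, and subsets of libraries. The main test did not treat libraries as paired by replicate number. Values per library are given for every called subunit, the immunoproteasome and its constitutive counterparts, the 3 highest and 3 lowest others, Psme3, Psme4, Psma8 and Psmb11. A panel of partner genes is given by values per library or by log2 fold change, and 1 of them is not reported here. Psma5, Psmb11 and Psma8 did not pass the filter. Paaf1 and Tf were listed but not found by symbol. The members and lists were chosen with earlier results of these data known.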

Additional observations from a re-analysis of the deposited data

How the results depend on the processing

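The count of subunits called lower was 3 with DESeq2, limma-voom, RLE size factors, upper-quartile factors, no filter and the stricter filter. It was 1 (Psmb4) when libraries were scaled to genes other than mitochondrial and rRNA-like loci without TMM, which moved the median log2 fold change of all tested genes from 0.01 to 0.12 and gave 179 genes higher and 222 lower, against 169 and 379. It was 6 at an adjusted p under 0.1, beside 6.89% of tested genes called lower, 0 at one under 0.01, and 0 in the 4 libraries with few rRNA-like reads, where Psmb4 had a log2 fold change of -1.23 (adjusted p = 0.109), and 0 to 1 with 1 library left out. All genes called were 548, and 841 with DESeq2, 1447 without a filter, 36 in the 4 libraries, 1229 and 60 at the other thresholds, and 114 to 468 with 1 library left out. The core median of -0.54 became -0.43 with the scaling to other genes, -0.25 with the length offsets and -0.56 to -0.40 with 1 library left out. The cap median was -0.14 to 0.043 with 1 library left out, 0.02 with upper-quartile factors and 0.08 with the scaling to other genes, so its sign is not settled. Psmb9 became 0.19 in the 4 libraries and ranged from -0.36 to 0.21 with 1 library left out. B2m became 0.045 with the scaling to other genes and 0.19 with length offsets, and H2-K1 became -0.014 without a filter. With 1 library left out B2m ranged from -0.13 to 0.0095, H2-K1 from -0.060 to 0.090 and Irf1 from -0.10 to 0.43. The causes were not tested. The deviations of same-numbered libraries from their group means had correlations of 0.0349, -0.0123 and 0.0706, and those of other pairs ran from -0.098 to 0.0682. Deviations from means of 3 libraries cannot settle whether the numbers pair libraries. With the replicate number as a block 466 genes were called, and 2 subunits, Psmb4 and Psmd8 (Psmb1 adjusted p = 0.0562). Depth limits the low subunits, of which Psme2, Psma5 and Psmd10 had at most 32 counts in a library.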
